A study of Marchantia polymorpha and Klebsormidium nitens with 56 samples.

Results

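MpLDAP (identifier Mp4g15940, chromosome 4 as the identifier writes it) and MpOLEOSIN (Mp5g10430, chromosome 5) are 2 of the 20574 *Marchantia polymorpha* genes counted in the first of 3 deposited tables. Both are named for proteins of the lipid droplet surface. They were chosen by identifier, because earlier results on these data had listed them among the named genes that heat raised most in wild-type plants. Their heat changes in the wild types are therefore given below as a description with no test. Both passed the filter on low counts, and MpOLEOSIN lay under the minimum of that filter in the 2 unheated hsfa1y libraries.

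Lipid droplets are stores of neutral lipid, mostly triacylglycerol, inside a single layer of phospholipid. Lipid droplet-associated proteins (LDAP) coat and stabilise them in vegetative cells, while oleosins are the main coat proteins in oil seeds and keep small droplets from fusing. In *Arabidopsis thaliana* leaves, heat stress makes lipid droplets more abundant. Class A1 heat shock factors (HSFA1) are the activators that start the transcriptional heat response of plants, and class B1 factors (HSFB1) are better known, in *Arabidopsis*, as repressors.

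RNA was sequenced from 7-day-old gemmalings, the young plants that grow from the vegetative propagules of this liverwort, kept at 22 °C or exposed to 37 °C. The hours of heat are not given per sample for this experiment, and which libraries were left unheated is taken from their titles alone. The 28 libraries form 14 groups of 2. In the male background these were hsfa1y knockout with heat and without, hsfb1 knockout with heat and without, lines overexpressing HSFA1X or HSFA1Y without heat, and the Tak-1 wild type with heat and without. In the female background they were hsfa1x with heat and without, lines overexpressing HSFA1X or HSFA1Y without heat, and the BC3 wild type with heat and without. The promoter of the overexpression lines and the number of independent lines behind each group are not in the labels. The sample sheet lists hsfa1x as a knockout, whereas its genotype field carries the overexpression tag, and the sheet is followed here. The genes that were knocked out or overexpressed are not paired by name with identifiers of this table, so their state was not checked.

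Total reads ran from 17.73 to 23.997 M per library, with a median of 20.1 M. Reads from male V-linked genes came to 2071 to 2707 CPM in the 16 libraries of the male background and 385 to 948 CPM in the 12 of the female background. MpRBCS, a photosynthesis gene, averaged 297 CPM over the libraries. Of the reproductive markers, MpPRM, a sperm protamine gene, had 7 reads in all libraries together. The others were present, with averages of 74.5 CPM for MpRKD, 8.27 CPM for MpMID and 1.27 CPM for MpDUO1. Levels are in CPM, counts per M reads of the scaled library, and differ between genes with transcript length, so they are compared only within a gene. Changes are log2 fold changes ± SE from edgeR's quasi-likelihood fit, and p-values are its F test with Benjamini-Hochberg adjustment over the 13432 genes tested, with a call at an adjusted p below 0.05. The design text calls the replicates biological, and with n = 2 libraries per group the p-values measure the spread between these libraries. RNA came from whole plants, so a change in the number of cells that express a gene and a change of RNA per cell cannot be told apart.

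In the wild types both genes stood higher with heat. MpLDAP stood at 768 and 773 CPM in heated Tak-1, against 69.4 and 66.3 CPM in unheated Tak-1. In the female wild type it stood at 768 and 844 CPM in heated BC3, against 48.6 and 60.8 CPM in unheated BC3. No heated library came near an unheated one, and the log2 change was 3.51 ± 0.09 in Tak-1 and 3.88 ± 0.09 in BC3.

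MpOLEOSIN had 106 and 156 reads in heated Tak-1, against 13 and 14 reads in unheated Tak-1, which is 5.76 and 8.27 CPM against 0.650 and 0.677 CPM. In heated BC3 it had 113 and 127 reads, against 17 and 20 reads in unheated BC3. The groups did not overlap in either wild type. The log2 change was 3.39 ± 0.28 in Tak-1 and 2.77 ± 0.27 in BC3. These are the contrasts that singled both genes out. Heat was called higher for 25.6% of the genes tested in Tak-1 and 23.9% in BC3. With libraries scaled by their totals alone, in place of TMM factors that also weigh composition, the share of called genes that were higher was 39.95% in Tak-1 and 33.5% in BC3, against 50.1% and 49.9% with TMM.

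**Figure D1:**
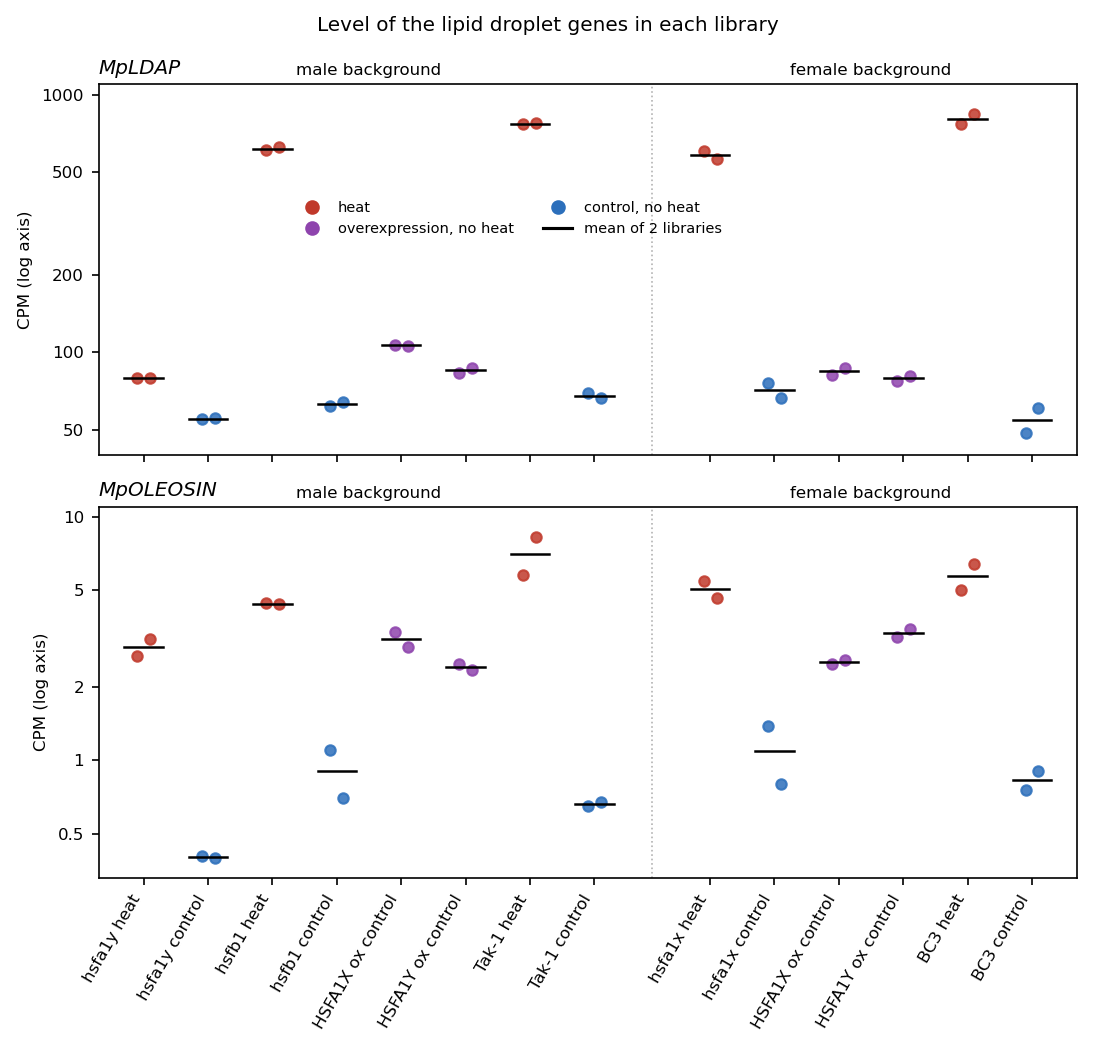
Levels of MpLDAP (upper panel) and MpOLEOSIN (lower panel) in each of the 28 libraries, in CPM on a log axis. Points are libraries, bars are means of 2, and colours mark heat, overexpression without heat, and control. Heated hsfa1y lies at 79.3 and 79.5 CPM for MpLDAP, within the range of the overexpression lines, while heated hsfb1, Tak-1, hsfa1x and BC3 lie at 564 CPM or more.

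Heated hsfa1y plants separated the pair. MpLDAP stood at 79.3 and 79.5 CPM in heated hsfa1y, against 54.8 and 55.3 CPM in unheated hsfa1y. The heated libraries were higher without overlap, and the rise was small, 1.44-fold with a 95% interval of 1.28 to 1.63 (log2 0.53 ± 0.08, edgeR adjusted p = 1.40e-05). Among all genes tested it ranked 2200 from the highest rise in this genotype, in which 22.1% of genes were called higher (49.7% of all called genes, and 62.2% with scaling by totals alone). The heated hsfa1y mean was 10.3% of the heated Tak-1 mean.

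MpOLEOSIN had 53 and 78 reads in heated hsfa1y, against 8 and 9 reads in unheated hsfa1y, which is 2.67 and 3.16 CPM against 0.405 and 0.398 CPM. The exact Poisson 95% intervals of those 4 counts were 39.7 to 69.3 and 61.7 to 97.3 reads with heat, and 3.45 to 15.8 and 4.12 to 17.1 reads without. The groups did not overlap, and MpOLEOSIN rose 7.20-fold with a 95% interval of 4.50 to 11.5 (log2 2.85 ± 0.33, edgeR adjusted p = 1.42e-07). It ranked 94 from the highest rise in this genotype, and the interval lies wholly above that of MpLDAP. The heated hsfa1y mean was 41.6% of the heated Tak-1 mean. Intervals on reads cover counting error only.

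In hsfb1 knockout both genes rose with heat. MpLDAP stood at 607 and 623 CPM in heated hsfb1, against 61.9 and 64.1 CPM in unheated hsfb1. The rise was 9.76-fold (log2 3.29 ± 0.09, edgeR adjusted p = 1.81e-19), and the heated mean was 79.8% of that of heated Tak-1. MpOLEOSIN had 86 and 83 reads in heated hsfb1, against 25 and 14 reads in unheated hsfb1. The groups did not overlap, and the rise was 4.81-fold (log2 2.27 ± 0.27, edgeR adjusted p = 3.44e-07). In this genotype heat was called higher for 18.8% of genes, and MpLDAP ranked 92 and MpOLEOSIN 215 from the highest rise.

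In the female hsfa1x line both genes also rose. MpLDAP stood at 604 and 564 CPM in heated hsfa1x, against 76.2 and 66.3 CPM in unheated hsfa1x. All heated libraries lay above all unheated ones, with a rise of 8.19-fold (log2 3.03 ± 0.09, edgeR adjusted p = 7.77e-19). MpOLEOSIN had 123 and 93 reads in heated hsfa1x, against 27 and 15 reads in unheated hsfa1x, a rise of 4.59-fold (log2 2.20 ± 0.27, edgeR adjusted p = 3.46e-07). Heat was called higher for 19.8% of genes in this line. The heated hsfa1x mean was 72.5% of the heated BC3 mean for MpLDAP and 88.1% for MpOLEOSIN.

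The estimate of the difference in heat response between the knockouts of the male background used no wild-type library. Its SE and p rest on the spread in the fit to all 28 libraries, wild types included. For MpLDAP the response in hsfa1y differed from that in hsfb1 by −2.76 ± 0.12 on the log2 scale (edgeR adjusted p = 1.35e-14), which ranked 163 from the lowest of all genes. For MpOLEOSIN the same difference was 0.58 ± 0.45 and was not called (edgeR adjusted p = 0.412). Its 95% interval, −0.36 to 1.52 on the log2 scale, does not show that the knockouts responded alike, and it lies wholly above the MpLDAP interval of −3.002 to −2.51. Between these knockouts the heat response was called lower in hsfa1y for 11.4% of genes. Of the genes called in either direction 52.3% were higher, against 66.8% when libraries were scaled by their totals alone.

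The differences from the wild types are descriptions, since they contain the heat changes that singled the genes out. For MpLDAP the response differed from that of Tak-1 by −2.98 ± 0.12 in hsfa1y and by −0.22 ± 0.11 in hsfb1, and from that of BC3 by −0.85 ± 0.11 in hsfa1x. For MpOLEOSIN those differences were −0.54 ± 0.49 in hsfa1y, −1.12 ± 0.42 in hsfb1 and −0.58 ± 0.40 in hsfa1x, all on the log2 scale. The MpLDAP value in hsfa1y stands far from the others, while the 3 MpOLEOSIN values have SEs of 0.40 to 0.49.

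**Figure D2:**
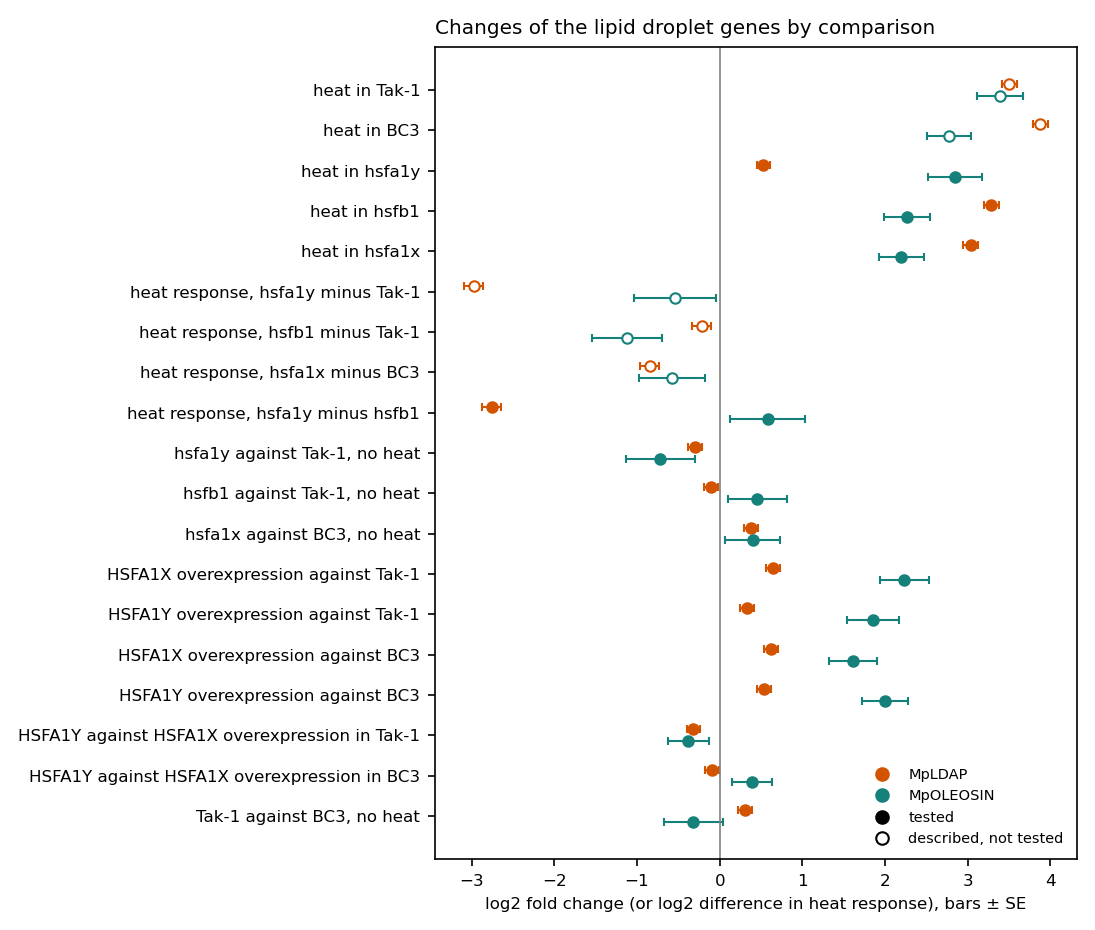
Log2 fold change, or log2 difference in heat response, of MpLDAP (orange) and MpOLEOSIN (green) in each comparison, with bars of ± SE. Filled points were tested and open points are descriptions. MpLDAP is at 0.53 with heat in hsfa1y and near 3 or above with heat elsewhere, and MpOLEOSIN is between 2.20 and 3.39 with heat in all 5 genotypes.

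Comparisons with the unheated wild types use libraries that had a part in the choice of both genes, whose low values there entered the heat changes. MpLDAP stood at 54.8 and 55.3 CPM in unheated hsfa1y, against 69.4 and 66.3 CPM in unheated Tak-1. The change was −0.30 ± 0.08 (edgeR adjusted p = 0.0257) in a comparison that called 3.15% of genes lower. Of its called genes 60.7% were higher, against 38.1% with scaling by totals alone. The call did not hold when any 1 of the 4 libraries was left out, with adjusted p of 0.0794 to 0.194. In unheated hsfb1 the MpLDAP change from Tak-1 was −0.11 ± 0.08 (edgeR adjusted p = 0.348), with a 95% interval of −0.28 to 0.07. This comparison called 34.3% of genes in either direction, 51.8% of them higher, against 39.9% with scaling by totals alone.

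In unheated hsfa1x MpLDAP was higher than in unheated BC3 by 0.38 ± 0.08 (edgeR adjusted p = 0.00199), beside 11.3% of genes called higher (60.6% of those called, and 47.3% with scaling by totals alone). That call rests on single libraries, since leaving out BC3 replicate 1 gave 0.21 (adjusted p = 0.121) and leaving out hsfa1x replicate 1 gave 0.28 (adjusted p = 0.0744). MpOLEOSIN was called in no unheated knockout by edgeR. Its changes were −0.72 ± 0.42 in hsfa1y (adjusted p = 0.354), 0.45 ± 0.36 in hsfb1 (adjusted p = 0.355) and 0.40 ± 0.33 in hsfa1x (adjusted p = 0.459). Their 95% intervals reach from −1.58 to 0.14, from −0.29 to 1.19 and from −0.29 to 1.09 on the log2 scale. The libraries compared held 8 to 27 reads of MpOLEOSIN each, and these intervals do not show that the levels were alike.

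The unheated wild types differed for MpLDAP by 0.31 ± 0.08 in Tak-1 against BC3 (edgeR adjusted p = 0.00974), where 12% of genes were called higher. This call was lost without BC3 control replicate 1 (0.16, adjusted p = 0.276), which at 48.6 CPM is the lowest of all libraries, and without Tak-1 control replicate 1 (0.28, adjusted p = 0.0946). For MpOLEOSIN the difference was −0.32 ± 0.36 (edgeR adjusted p = 0.618).

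With either HSFA1 overexpressed and no heat, both genes stood above the unheated wild types, MpOLEOSIN by the larger fold. The low values of those wild types had a part in the choice of both genes. MpOLEOSIN had 77 and 60 reads with HSFA1X overexpression and 49 and 43 reads with HSFA1Y overexpression in the male background, against 13 and 14 reads in Tak-1. In the female background it had 48 and 50 reads with HSFA1X and 75 and 69 reads with HSFA1Y, against 17 and 20 reads in BC3. Each overexpression library lay above each wild-type library of its background.

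The rise of MpOLEOSIN was 4.71-fold with HSFA1X in the male background (95% interval 3.06 to 7.24, log2 2.24 ± 0.30, edgeR adjusted p = 2.68e-06) and 3.62-fold with HSFA1Y (2.31 to 5.67, log2 1.86 ± 0.31, adjusted p = 4.60e-05). In the female background it was 3.05-fold with HSFA1X (2.01 to 4.65, log2 1.61 ± 0.29, edgeR adjusted p = 2.42e-04) and 4.00-fold with HSFA1Y (2.67 to 5.99, log2 2.00 ± 0.28, adjusted p = 1.07e-05). The lines of a background share their wild-type libraries, so these are not independent results. Those wild-type libraries also entered the choice of both genes by their heat change. How far that choice raises the fold changes over them was not tested, and the p-values make no allowance for that choice. The unheated knockouts had no part in that choice. With both backgrounds pooled and no test, MpOLEOSIN ran from 2.35 to 3.46 CPM in the 8 overexpression libraries. It ran from 0.398 to 1.39 CPM in the 6 unheated knockout libraries, without overlap. The overexpression means came to 34.5 to 58.3% of the heated wild-type mean of the same background.

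For MpLDAP the levels were 107 and 106 CPM with HSFA1X and 83.3 and 87.0 CPM with HSFA1Y in the male background, against 69.4 and 66.3 CPM in Tak-1. In the female background they were 81.9 and 86.6 CPM with HSFA1X and 77.4 and 80.8 CPM with HSFA1Y, against 48.6 and 60.8 CPM in BC3. These were rises of 1.57-fold (1.39 to 1.76) and 1.25-fold (1.11 to 1.41) in the male background and of 1.54-fold (1.37 to 1.74) and 1.45-fold (1.28 to 1.63) in the female background, with 95% intervals in parentheses. The edgeR adjusted p was 1.38e-06 and 0.00324 in the male background and 5.16e-06 and 4.48e-05 in the female background, for HSFA1X and then HSFA1Y. These p-values make no allowance for the part that the unheated wild types had in the choice of the gene. Set against the 6 unheated knockout libraries of both backgrounds, at 54.8 to 76.2 CPM, the 8 overexpression libraries ran from 77.4 to 107 CPM. No test was run on this pooled comparison. Its margin was narrow in the female background, at 77.4 and 80.8 CPM with HSFA1Y against 76.2 and 66.3 CPM in unheated hsfa1x. In each of the 4 lines the MpOLEOSIN interval lies wholly above the MpLDAP interval. The overexpression means of MpLDAP came to 9.82 to 13.8% of the heated wild-type mean.

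All 8 of these changes over the wild types were called higher, with the limit on those libraries given above. The share of all genes called higher was 15.1% with HSFA1X and 16.1% with HSFA1Y in the male background, and 10.5% with HSFA1X and 9.19% with HSFA1Y in the female background. For HSFA1X in Tak-1, 46.6% of the called genes were higher, against 58.8% when libraries were scaled by totals alone.

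The overexpressed factors were also set against each other. With HSFA1Y against HSFA1X in the male background the MpLDAP change was −0.32 ± 0.08 (edgeR adjusted p = 0.00793), beside 9.75% of genes called lower. Leaving out 1 library at a time lost that call in 3 of 4 fits, with adjusted p of 0.0364 to 0.112. In the female background the MpLDAP difference was −0.09 ± 0.08 (edgeR adjusted p = 0.576), where 6.83% of genes were called in either direction, 39.9% of them higher, against 62.7% with scaling by totals alone. For MpOLEOSIN the differences were −0.38 ± 0.25 in the male background (edgeR adjusted p = 0.338) and 0.39 ± 0.24 in the female background (adjusted p = 0.376). Neither passed the test, and their 95% intervals run from −0.89 to 0.13 and from −0.12 to 0.89.

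The order of the 14 group means shows where each gene's levels separate. For MpLDAP 10 groups lay between 54.7 ± 8.59 CPM (BC3 control) and 106 ± 0.461 CPM (HSFA1X overexpression in Tak-1), and heated hsfa1y, at 79.4 ± 0.113 CPM, was among them. The next group above was heated hsfa1x at 584 ± 28.8 CPM, followed by heated hsfb1 at 615 ± 11.5 CPM, heated Tak-1 at 771 ± 3.36 CPM and heated BC3 at 806 ± 53.6 CPM (SD, n = 2 each). Of the 13 pairs of neighbours in this order, 5 overlapped in their libraries.

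For MpOLEOSIN the order formed a longer slope. The 5 unheated knockout and wild-type groups came lowest, between 0.401 ± 0.00548 CPM in hsfa1y and 1.09 ± 0.416 CPM in hsfa1x. The 4 overexpression groups and heated hsfa1y followed, between 2.42 ± 0.0975 and 3.34 ± 0.176 CPM, with heated hsfa1y at 2.92 ± 0.343 CPM. The other heated groups were highest, at 4.41 ± 0.0493 CPM in hsfb1, 5.04 ± 0.582 CPM in hsfa1x, 5.72 ± 0.997 CPM in BC3 and 7.01 ± 1.78 CPM in Tak-1 (SD, n = 2 each). In this order 6 of the 13 pairs of neighbours overlapped.

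The reads of MpLDAP per read of MpOLEOSIN put both genes on a scale that library size does not touch. The ratio itself depends on transcript lengths, so only its differences between libraries are described. It was 29.7 and 25.2 in heated hsfa1y, against 135 and 139 in unheated hsfa1y. It was 137 and 143 in heated hsfb1, against 56.0 and 91.7 in unheated hsfb1. In heated Tak-1 it was 133 and 93.5, against 107 and 98.0 in unheated Tak-1.

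In the female background the ratio was 111 and 122 in heated hsfa1x, against 55.0 and 83.1 in unheated hsfa1x, and 153 and 131 in heated BC3, against 64.2 and 67.4 in unheated BC3. Across the 8 overexpression libraries it ran from 23.4 to 37.0, below the range of 55.0 to 139 in the 10 unheated libraries of knockouts and wild types. Both heated hsfa1y libraries lay inside the range of the overexpression lines. In hsfa1y the heated libraries lay below the unheated ones, in hsfb1, hsfa1x and BC3 above them, and in Tak-1 they overlapped. No test was run on this ratio.

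**Figure D3:**
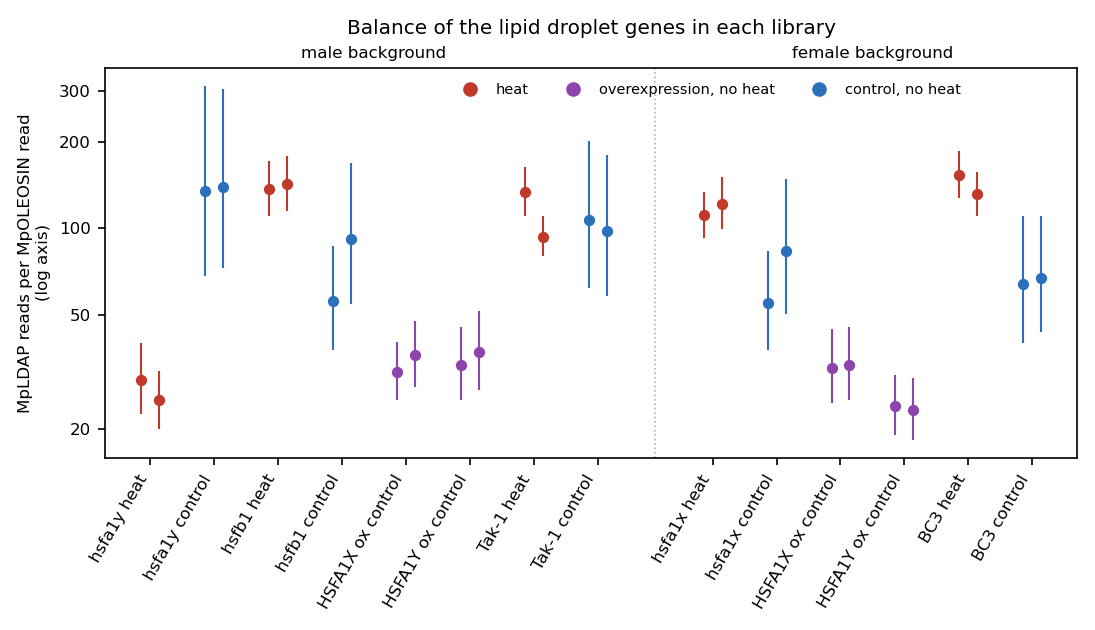
MpLDAP reads per MpOLEOSIN read in each library on a log axis, with exact binomial 95% intervals that cover counting error. The 2 heated hsfa1y libraries (29.7 and 25.2) and the 8 overexpression libraries (23.4 to 37.0) lie below the 18 others, which start at 55.0.

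Other genes of lipid metabolism and of the heat response were counted from lists of symbols. Besides the pair itself, the list of lipid droplet proteins held MpSEIPIN, for an endoplasmic reticulum protein at the sites where droplets form, and MpCALEOSIN, for a calcium-binding droplet protein. MpSEIPIN (Mp4g07520) had 35.7 and 28.4 CPM in heated hsfa1y, against 27.4 and 23.1 CPM in unheated hsfa1y, a log2 change of 0.35 ± 0.12 (edgeR adjusted p = 0.0222). In hsfb1 it had 28.9 and 32.2 CPM with heat, against 16.6 and 16.1 CPM without, a change of 0.90 ± 0.13 (adjusted p = 2.53e-06). MpSEIPIN rose in all 5 genotypes, by 0.35 to 0.90, and its response in hsfa1y differed from that in hsfb1 by −0.56 ± 0.17 (edgeR adjusted p = 0.0206). The heated libraries of these knockouts overlapped, and unheated hsfb1 stood below unheated Tak-1 by 0.36 ± 0.13 (adjusted p = 0.0314). Against Tak-1 the response in hsfa1y differed by −0.43 ± 0.17 and was not called (adjusted p = 0.101).

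MpSEIPIN was called higher in no overexpression line. It fell by 0.64 with HSFA1Y in the male background (edgeR adjusted p = 4.28e-04), and the changes in the other lines were −0.28, 0.10 and 0.05, none of them called. MpCALEOSIN (Mp5g05270) had 0 to 9 reads per library and 89 in all, with 4 libraries at 0, and was under the filter. Its highest counts, 9 and 9, were in heated hsfa1y, against 4 and 1 in unheated hsfa1y.

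Of 5 genes listed by symbol under triacylglycerol assembly (MpPAH, for phosphatidate phosphatase, and 4 glycerol-3-phosphate acyltransferases named GPAT6), heat raised 3 and lowered 2 in Tak-1. Whether the GPAT6 genes act in that pathway was not checked, so the counts describe the list and not the pathway. In hsfa1y it raised 1 and lowered 1, and 3 were not called. The list median was 0.50 in Tak-1 and 0.24 in hsfa1y, beside medians over all genes of −0.02 and −0.01. Of all genes tested, 25.6% were called higher and 25.5% lower in Tak-1, and 22.1% higher and 22.4% lower in hsfa1y. MpGPAT6b rose in all 5 genotypes, by 1.48 ± 0.11 in Tak-1 and 1.00 ± 0.11 in hsfa1y (edgeR adjusted p = 1.17e-07), while MpGPAT6a fell by 1.54 in Tak-1. None of the 5 was called higher in an overexpression line, where 9.19 to 16.1% of all genes were called higher. A list of 5 genes is too short to set against that share. In the male background MpGPAT6a changed by −0.45 with HSFA1X (edgeR adjusted p = 0.0398) and by −0.55 with HSFA1Y (adjusted p = 0.0129).

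Of 12 genes with symbols of fatty acid desaturases, heat raised 5 and lowered 4 in Tak-1, and it raised 5 and lowered 3 in hsfa1y, where 25.6% (Tak-1) and 22.1% (hsfa1y) of all genes were called higher and 25.5% and 22.4% lower. The list medians, 0.06 and 0.10, lay near the medians over all genes. MpFAD4 fell by 2.04 in Tak-1 and by 1.26 in hsfa1y. MpFAD2, singled out after its values were seen, was the 1 member of the list called higher in all 4 overexpression lines, by 0.81 to 1.61. In these lines 9.19 to 16.1% of all genes were called higher. MpFAD2 rose with heat by 1.11 ± 0.28 in hsfa1y (edgeR adjusted p = 0.00219) and 1.81 ± 0.24 in hsfb1 (adjusted p = 1.45e-06). The list of triacylglycerol breakdown held MpLACS alone, for a long-chain acyl-CoA synthetase, whose heat changes lay between −0.08 and 0.25.

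The abscisic acid list followed regulators known to act on oleosin genes in *Arabidopsis* seeds. It held 7 genes, of which 4 were tested. Heat raised MpABI5A, MpABI5B and MpPYL1, for transcription factors of the ABI5 kind and an abscisic acid receptor, in all 5 genotypes. The 4th tested gene, MpABI3A, for a transcription factor of the ABI3 kind, went the other way, with −0.23 in Tak-1 (edgeR adjusted p = 0.0384), −0.54 in BC3 (adjusted p = 3.78e-05) and −0.52 in hsfa1x (adjusted p = 5.29e-05), and was not called in hsfa1y or hsfb1. Heat was called higher for 18.8 to 25.6% of all genes across the 5 genotypes, and lower for 25.5% in Tak-1, 24% in BC3 and 22% in hsfa1x. MpABI5B had 48.2 and 47.7 CPM in heated hsfa1y, against 21.3 and 20.1 CPM in unheated hsfa1y, and 21.2 and 21.7 CPM in heated hsfb1, against 17.1 and 18.1 CPM in unheated hsfb1. Its response was larger in hsfa1y than in hsfb1 by 0.92 ± 0.12 (edgeR adjusted p = 1.95e-06). With overexpression in the male background MpABI5B changed by −0.27 with HSFA1X and by −0.58 with HSFA1Y, and in the female background it was not called, at −0.10 with HSFA1X (edgeR adjusted p = 0.458) and 0.10 with HSFA1Y (adjusted p = 0.469).

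Liverwort oil bodies are terpenoid-filled organelles of special cells and are not lipid droplets, so markers of those cells were counted beside the pair. Of 4 such genes heat lowered 2 and raised 0 in Tak-1, and lowered 1 and raised 2 in hsfa1y. The list medians were −0.64 and −0.01, beside −0.02 and −0.01 over all genes. Of all genes, 25.5% were called lower and 25.6% higher in Tak-1, and 22.4% lower and 22.1% higher in hsfa1y. Their summed level was 19.3 to 36.6 CPM in the 10 heated libraries, 42.6 to 53.6 CPM in the 8 overexpression libraries and 28.8 to 45.7 CPM in the 10 unheated libraries of knockouts and wild types. In hsfa1y the sum was 36.6 and 35.1 CPM with heat, against 28.8 and 31.8 CPM without. MpABCG1, a transporter of oil body cells, was called higher in all 4 overexpression lines by 0.58 to 0.72, and the other 3 markers were called in none. In these lines 9.19 to 16.1% of all genes were called higher, and the lines of a background share their wild-type libraries. The part of these cells in the levels of MpLDAP and MpOLEOSIN was not tested.

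Of the reproductive markers, 3 of 4 were tested. Heat raised 1 or 2 of them and lowered 1 in each genotype. Of all genes, 18.8 to 25.6% were called higher, and 25.5% were called lower in Tak-1, 24% in BC3, 22.4% in hsfa1y and 22% in hsfa1x. In hsfb1 the 18.8% called higher made up 46.6% of the called genes, and the rest were lower. The sum of the 3 tested markers was 54.0 to 77.3 CPM with heat, 88.2 to 119 CPM with overexpression and 74.0 to 101 CPM without either. Most of that sum was MpRKD, with a mean of 74.5 CPM over the libraries, against 8.27 CPM for MpMID and 1.27 CPM for MpDUO1. MpRKD, a regulator of germ cell formation, fell with heat in all 5 genotypes, with changes of −0.89 to −0.25. MpMID was called higher in Tak-1 and hsfb1. MpDUO1, a regulator of sperm differentiation named here after its values were seen, was at 2.52 and 2.31 CPM in heated hsfa1y, against 0.304 and 0.574 CPM in unheated hsfa1y, and rose with heat in all 5 genotypes by 1.79 to 2.42. It was called in no overexpression line. The part of such cells in the levels of the pair was likewise not tested.

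**Figure D4:**
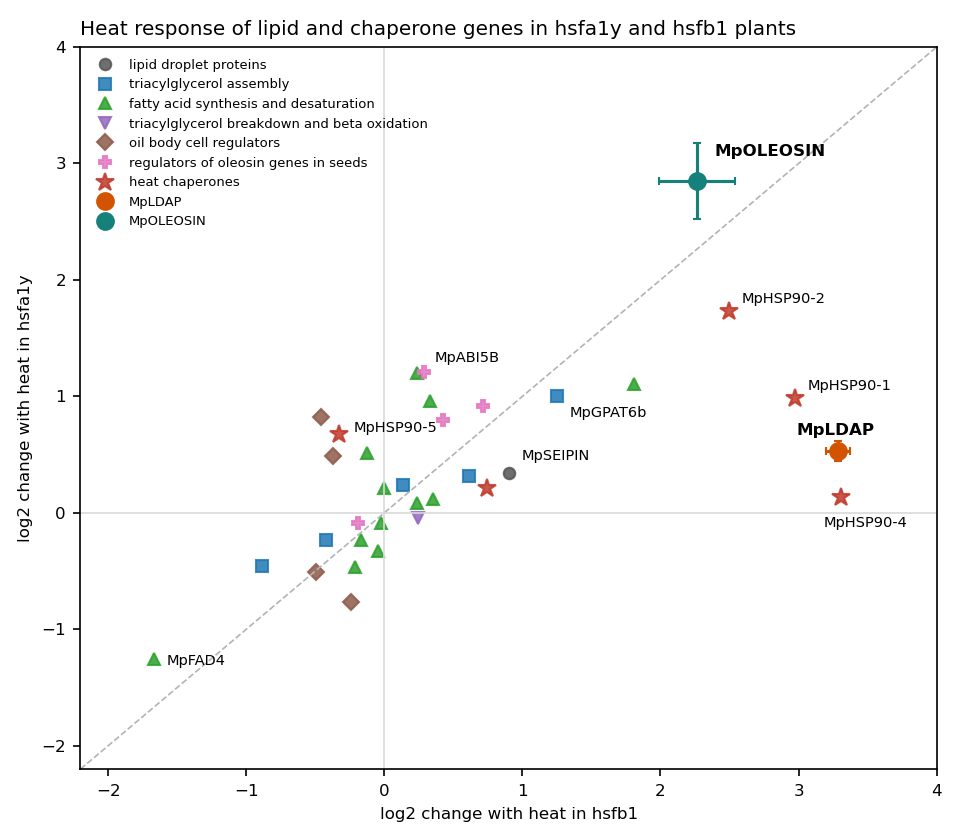
Log2 change with heat in hsfa1y (vertical axis) against that in hsfb1 (horizontal axis) for MpLDAP, MpOLEOSIN (bars ± SE) and the tested genes of the lists. The dashed line marks equal changes. MpLDAP lies at 0.53 and 3.29 beside MpHSP90-4 (0.13 and 3.30), and MpOLEOSIN lies above the line at 2.85 and 2.27.

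The heat chaperone list held the 5 HSP90 genes. Heat raised 4 of them in hsfb1 and 2 in hsfa1y, with list medians of 2.49 and 0.68, beside 18.8% of all genes called higher in hsfb1 and 22.1% in hsfa1y. The hsfa1y median is the value of MpHSP90-5, which averaged 1.62 CPM and was not called. MpHSP90-4 had 197 and 196 CPM in heated hsfa1y, against 173 and 186 CPM in unheated hsfa1y. That is a change of 0.13 ± 0.08 (edgeR adjusted p = 0.172), and it rose by 3.30 ± 0.08 in hsfb1. MpHSP90-2 rose by 1.73 ± 0.08 in hsfa1y and 2.49 ± 0.08 in hsfb1. For MpHSP90-1 the rises were 0.99 ± 0.06 and 2.97 ± 0.07. MpHSP90-3 changed by 0.21 ± 0.10 in hsfa1y, not called, and by 0.74 ± 0.10 in hsfb1.

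The genes with a symbol whose group means were most like those of each member were ranked by Pearson's correlation of log2 (CPM + 0.5) over the 14 groups. The groups share the contrast of heat with no heat, so a high correlation is common among heat-raised genes, and the values are a description. Of 1863 genes ranked for MpLDAP, the closest were MpHSP90-4 (0.991), MpCYP759B1 (0.988), MpPPR_41 (0.988), MpHSP90-1 (0.982) and MpPPR_51 (0.977). Their heat changes were 1.23 to 3.86 in Tak-1 and 0.01 to 0.99 in hsfa1y.

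Of 1864 genes ranked for MpOLEOSIN, the closest were MpABCB6 (0.955), MpIBR5 (0.940), MpAPX1 (0.918), MpGST9 (0.917) and MpHA8 (0.914). The heat change of MpABCB6 was 2.85 in Tak-1 and 1.53 in hsfa1y, and that of MpHA8 was 2.35 in Tak-1 and 2.88 in hsfa1y. For MpGST9 it was 2.81 in Tak-1 and 1.15 in hsfa1y. The changes were smaller for MpIBR5 (0.54 in Tak-1 and 0.24 in hsfa1y) and MpAPX1 (0.59 and 0.33). With HSFA1X overexpression in the male background the 5 changed by 0.29 to 1.76. The lists of 5 did not overlap between the members. Lists of 5 out of 1864 genes would seldom share a gene by chance, so this does not set the members apart. The lists also depend on the measure, since 1 of 5 for MpLDAP and 2 of 5 for MpOLEOSIN stayed among the closest 5 under Spearman's correlation.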

How the data were processed

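The authors deposited raw, whole-number read counts by gene in a table whose columns were matched to samples through the labels' sample sheet. STAR is named in the submitters' processing notes. Its version, the genome build, the counting program, strandedness and the handling of reads shared by several genes are not stated in the labels or files, so counts of genes with close copies are uncertain. The 20575 rows held 1 repeated identifier, which was summed, and 17641 of 20574 genes matched a reference locus tag by chromosome and number, which gave symbols to 3091. Sequences, the other 2 tables (other identifiers) and the chromatin samples were not analysed here. The promoter, protein and second-experiment results that had been planned were not run.

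Counts were fitted in R 4.3.3 with edgeR 4.0.16 (quasi-likelihood, TMM, filterByExpr, a mean for each of the 14 groups), which left 13432 genes holding 99.98% of reads. TMM factors ran from 0.932 to 1.07. SEs are the change divided by the square root of F, and the fit was tested on simulated data. Alternatives were DESeq2 1.42.0 (its test and its size factors), library totals, no filter, the compared groups alone, the replicate block, and leaving out each library. Within groups, replicates differed by more than sampling noise (chi-square per degree of freedom 2.29 to 17.7). Over all genes the highest value, 17.7, was that of heated hsfa1y, against 2.60 in unheated and 2.87 in heated Tak-1. The fit gave each gene 1 spread shared by all groups. For the members in heated hsfa1y the chi-square was 0.00332 (MpLDAP) and 0.881 (MpOLEOSIN).

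The members and lists were chosen with earlier results of these data known. Named genes are the members, all lipid droplet genes, up to 4 per other list (at least 5 CPM, largest heat change in Tak-1) and the 5 genes most like each member. MpFAD2 and MpDUO1 stand outside that rule.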

Additional observations from a re-analysis of the deposited data

Results flagged for a closer look

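The heat response of MpLDAP differed between the 2 knockouts of the male background by −2.76 ± 0.12 on the log2 scale (hsfa1y minus hsfb1, edgeR adjusted p = 1.35e-14), a test of the difference itself. The estimate used 8 libraries and no wild type, while the SE and p took their spread from the fit to all 28 libraries. Both heated hsfa1y libraries (79.3 and 79.5 CPM) lay below both heated hsfb1 libraries (607 and 623 CPM), while the unheated libraries were at 54.8 and 55.3 CPM in hsfa1y and at 61.9 and 64.1 CPM in hsfb1. The difference was −2.80 to −2.75 with 1 library left out and −2.77 to −2.65 under the other settings.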

How the results depend on the processing

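Of 412 values of the 38 results on the 2 genes under alternative settings, 33 differed in call, direction or by more than the replicate spread. With libraries scaled by totals alone, the MpLDAP heat change in Tak-1 was 3.42, the response difference of hsfa1y from Tak-1 was −2.79 for MpLDAP and −0.35 for MpOLEOSIN, and that of hsfb1 from Tak-1 was −0.13 for MpLDAP. That scaling moved the median of all genes by at most 0.189 (hsfa1y minus Tak-1) and by over 0.1 in 4 comparisons. The largest such move among tested results was 0.103 (hsfa1y minus hsfb1), where MpLDAP was at −2.65. With the compared groups alone, MpLDAP in unheated hsfa1x against BC3 was 0.37 and no longer called (adjusted p = 0.0828). MpOLEOSIN in that comparison turned to −0.049 without hsfa1x control replicate 1. With the replicate number as a block, all 28 tested results stayed on their side of the threshold, the 10 others moved by less than the replicate spread, and MpLDAP with heat in hsfa1y was 0.53. The labels tie same-numbered libraries by number alone. The replicate differences of compared groups had correlations from −0.253 (heat in hsfb1) to 0.516 (heat in hsfa1y), with 5 of 15 over 0.1. The block gave all groups 1 shared term, so pairing within a genotype was not tested.

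With 1 library left out, the lone library of a group is assumed to vary like the others. MpLDAP then ran from 3.47 to 3.53 with heat in Tak-1, 3.73 to 4.06 with heat in BC3, −2.998 to −2.93 for hsfa1y minus Tak-1, −0.25 to −0.17 for hsfb1 minus Tak-1 and −1.03 to −0.67 for hsfa1x minus BC3. Without heat it ran from −0.34 to −0.28 in hsfa1y against Tak-1, 0.21 to 0.57 in hsfa1x against BC3, −0.35 to −0.27 in HSFA1Y against HSFA1X overexpression in Tak-1 and 0.16 to 0.48 in Tak-1 against BC3. MpOLEOSIN ran from 3.09 to 3.62 with heat in Tak-1, −0.76 to −0.26 for hsfa1y minus Tak-1, −1.38 to −0.72 for hsfb1 minus Tak-1, −0.93 to −0.13 for hsfa1x minus BC3 and −0.049 to 0.75 in unheated hsfa1x against BC3. The causes were not tested.

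Counts of all genes called moved more. Hsfa1x against BC3 without heat called 2508 genes, 1238 with the compared groups alone and 1409 to 1668 without BC3 or hsfa1x control replicate 1. HSFA1Y against HSFA1X overexpression called 918 genes in BC3 (270 to 391 with a library left out, 1471 with no filter, 3272 with those groups alone) and 2261 in Tak-1 (1304 to 1396). Hsfa1y against Tak-1 called 1076 genes (401 to 496), Tak-1 against BC3 2548 (1612 and 1683), and HSFA1X and HSFA1Y overexpression in BC3 2891 (1764 and 1882) and 2705 (1771). The promoter and second-table alternatives were not run. MpOLEOSIN had 8 to 27 reads in the unheated libraries of knockouts and wild types, where a count of 8 has an interval of 3.45 to 15.8 reads.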
